A study of Mus musculus with 8 samples.

Results

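The genes described here are 10 genes of the ATF4 and amino acid stress response: Eif2ak1, Atf4, Ddit3, Trib3, Sesn2, Chac1, Asns, Phgdh, Psat1 and Shmt2. They were taken by name from the arrays, using every non-control probe that carried 1 of the names. The 10 genes had 13 probes of 39429 on the array, and all 10 were among the 19130 genes tested. Each of the 13 probes was well above background on all 8 arrays, and none was saturated on any.

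When amino acids run short, haem is lacking or unfolded protein accumulates, kinases phosphorylate the translation factor eIF2alpha, which slows most protein synthesis while the mRNA of the transcription factor ATF4 is translated better. ATF4 then switches on genes for amino acid synthesis, amino acid uptake and tRNA charging, together with the transcription factor CHOP (gene Ddit3) and several brakes on the response. In erythroid cells the main kinase is HRI, the haem-regulated inhibitor encoded by Eif2ak1, which couples globin synthesis to haem supply.

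RNA came from early erythroid progenitors of E14.5 fetal liver of C57BL/6 mice, depleted of mature, multipotent and other myeloid progenitor cells by their surface markers and sorted for c-kit and for the lowest 10% of CD71. All cells were infected with a virus and collected on day 3 of culture. There were 4 groups of 2 one-colour arrays: shRNA2 with DEX, shRNA1 with DEX, control virus with DEX, and control virus without DEX (below, shRNA2 +DEX, shRNA1 +DEX, control +DEX and control -DEX). DEX is a glucocorticoid by the title of the series, and both hairpins target an RNA-binding protein that the labels leave unnamed. It is taken here to be Zfp36l2 because the published study of this design is known to target that gene. What the control virus carries, and whether the replicates were separate cultures or animals, is not given in the sources used here, and the spread behind each p-value may therefore be technical only. Both hairpin groups were grown with DEX, so no array shows a hairpin without it.

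The sequences set beside the results are promoter windows of 5 of the genes and probes of 5. The promoter windows run from 250 bases before the transcription start to 30 bases after it (RefSeq, mouse build GRCm38.p6). They show where the motif that ATF4 is known to bind with C/EBP proteins was found close to the start. This C/EBP-ATF response element was searched as TGATGNAAN, on both strands, in windows of 300 bases reaching 50 bases past the start. Matches are in capitals.
Trib3 (chr2:152344031-152344310, minus strand): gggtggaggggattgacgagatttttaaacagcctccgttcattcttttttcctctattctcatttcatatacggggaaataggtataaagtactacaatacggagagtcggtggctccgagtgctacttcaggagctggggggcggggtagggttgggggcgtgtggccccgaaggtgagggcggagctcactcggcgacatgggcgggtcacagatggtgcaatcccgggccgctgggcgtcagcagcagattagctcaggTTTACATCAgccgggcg
Chac1 (chr2:119350992-119351271, plus strand): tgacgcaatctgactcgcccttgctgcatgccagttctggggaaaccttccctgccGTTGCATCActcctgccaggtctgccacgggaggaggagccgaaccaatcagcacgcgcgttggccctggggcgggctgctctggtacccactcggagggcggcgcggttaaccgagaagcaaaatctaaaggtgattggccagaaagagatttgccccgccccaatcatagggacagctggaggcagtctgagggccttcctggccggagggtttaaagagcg
Asns (chr6:7693180-7693459, minus strand): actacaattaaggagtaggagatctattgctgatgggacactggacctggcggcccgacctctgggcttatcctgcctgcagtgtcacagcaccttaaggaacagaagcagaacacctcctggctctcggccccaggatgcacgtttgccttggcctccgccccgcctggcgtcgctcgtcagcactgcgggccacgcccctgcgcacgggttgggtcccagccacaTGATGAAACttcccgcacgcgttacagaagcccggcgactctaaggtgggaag
Ddit3 (chr10:127290543-127290822, plus strand): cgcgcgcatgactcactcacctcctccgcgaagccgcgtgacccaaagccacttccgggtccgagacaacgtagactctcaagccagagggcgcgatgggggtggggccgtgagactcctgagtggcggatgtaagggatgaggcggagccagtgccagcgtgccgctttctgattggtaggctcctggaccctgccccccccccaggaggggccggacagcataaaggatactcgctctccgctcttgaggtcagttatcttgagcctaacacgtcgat
Sesn2 (chr4:132510427-132510706, minus strand): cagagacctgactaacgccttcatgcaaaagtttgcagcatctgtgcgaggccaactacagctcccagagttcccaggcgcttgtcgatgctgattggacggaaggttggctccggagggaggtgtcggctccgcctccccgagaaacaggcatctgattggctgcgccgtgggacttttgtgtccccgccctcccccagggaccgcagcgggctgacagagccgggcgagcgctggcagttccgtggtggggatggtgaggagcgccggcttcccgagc
All 10 genes had a promoter in the RefSeq table, 11 windows in all because Psat1 has 2. A match lay in 3 of the 10 genes: Trib3 (TTTACATCA, the motif read on the opposite strand, 13 to 21 bases after the start), Chac1 (GTTGCATCA, also on the opposite strand, -194 to -186) and Asns (TGATGAAAC, -23 to -15), with positions counted from 0 at the first transcribed base. Of all 27025 genes in the table, 4.50% held a match, and 3.95% of 32851 promoters did. The cyclic AMP response element TGACGTCA was in none of the 11 windows and in 1.79% of all promoters. A match describes these letters and shows no binding. Sites beyond these windows, or with other letters, were not searched, so a gene without a match may still carry one.

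Where a gene had several probes, they lay at different places along the transcript, and for Atf4 they gave different answers in the hairpin arrays (below). The pairs of Atf4 and Psat1, and the probes of Ddit3, Trib3 and Sesn2, which are described at length below, were these 60-base oligonucleotides, with positions on mouse build mm9 as the array files give them.
Atf4, probe starting at base 504 of the transcript (chr15:80086639-80086698, plus strand): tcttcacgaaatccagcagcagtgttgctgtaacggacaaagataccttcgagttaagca
Atf4, probe starting at base 1655 (chr15:80087902-80087961, plus strand): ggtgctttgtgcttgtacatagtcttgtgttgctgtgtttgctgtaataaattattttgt
Psat1, probe starting at base 593 (chr19:15991586-15991645, minus strand): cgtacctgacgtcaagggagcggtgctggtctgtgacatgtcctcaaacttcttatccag
Psat1, probe starting at base 2069 (chr19:15979622-15979681, minus strand): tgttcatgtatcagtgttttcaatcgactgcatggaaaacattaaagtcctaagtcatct
Ddit3, probe starting at base 288 (chr10:126732518-126732821, plus strand): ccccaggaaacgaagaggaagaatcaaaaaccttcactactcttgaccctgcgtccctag
Trib3, probe starting at base 1991 (chr2:152163161-152163220, minus strand): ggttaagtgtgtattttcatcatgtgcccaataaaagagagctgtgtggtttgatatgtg
Sesn2, probe starting at base 2459 (chr4:132048858-132048917, minus strand): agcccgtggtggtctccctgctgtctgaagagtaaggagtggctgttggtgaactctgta
The Ddit3 probe spans 304 bases of the genome so its bases are not contiguous there. No annotation of mm9 was used, so whether the other probes lie in coding or untranslated sequence is not stated. Each gene below stands for its brightest probe on average, which is the later one for Atf4 and for Psat1.

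Levels below are log2 signals minus the 75th percentile of their array, so 0 is the level of the probe at that percentile and a difference of 1 is 2-fold; levels of different probes are not compared. Replicate 1 of every group was on slide 1 and replicate 2 on slide 2, and each group held the same position on both slides, so slide position and group cannot be told apart. The 75th percentile of the log2 signal lay between 8.90 and 11.0 and was lowest on the slide 1 arrays of shRNA1 (8.90) and shRNA2 (9.03). For several of the genes the 2 slides differed by as much as the groups did. Ddit3 was 1.45 to 2.57 lower on slide 2 in the 4 groups, Sesn2 1.06 to 1.50 lower, Trib3 0.66 to 1.84 lower and Eif2ak1 0.47 to 0.79 lower. The enzymes of serine synthesis ran the other way: Psat1 was 0.22 to 1.91 higher on slide 2 and Phgdh 0.02 to 1.91 higher, each least in control -DEX and most in shRNA2 +DEX. For that reason differences within each slide are given beside the means of the 10 genes, and for some of the other genes named. Whether 2 groups overlapped is given as description only. Groups of 2 arrays often separate without any effect, and the share of all genes that did so was not counted.

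**Figure D1:**
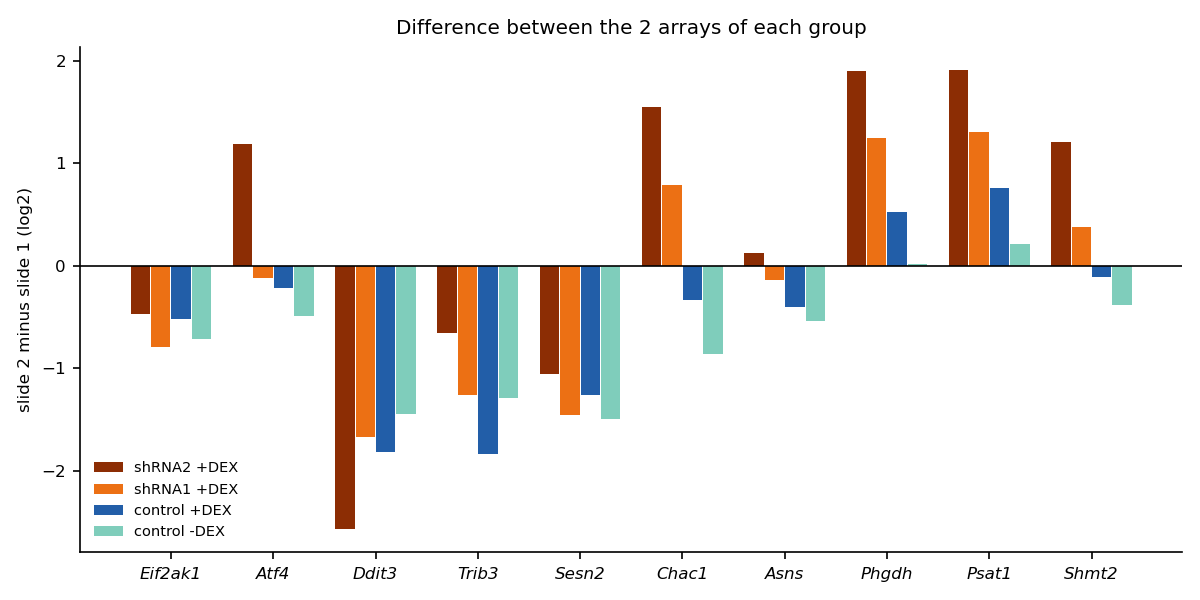
Difference between the 2 arrays of each group (slide 2 minus slide 1, log2, vertical axis) for the 10 genes, with 1 bar for each of the 4 groups. Ddit3, Trib3, Sesn2 and Eif2ak1 were lower on slide 2 in all 4 groups, while Phgdh and Psat1 were higher on slide 2 and most so in shRNA2 +DEX (1.91 for each).

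The targeted gene Zfp36l2 had levels of 4.12 and 3.70 in shRNA2 +DEX, 4.09 and 3.92 in shRNA1 +DEX, 5.55 and 5.42 in control +DEX, and 3.49 and 3.85 in control -DEX. Both hairpin groups lay below control +DEX, and control +DEX lay above control -DEX, on both slides, although none of these differences passed an adjusted p of 0.05. All 11 erythroid markers (among them Klf1, Gata1 and Hbb-b1) were well above background on every array. The shRNA2 +DEX array of slide 1 stood apart in markers of other blood cells. The summed signal of 12 neutrophil and granulocyte precursor markers, in units of the array's 75th percentile, was 541 there, 89.6 on the other shRNA2 +DEX array, 132 and 144 in shRNA1 +DEX, 36.9 and 65.3 in control +DEX, and 40.6 and 179.9 in control -DEX. The 8 megakaryocyte markers summed to 170.5 on that array and to between 13.8 and 73.5 on the other arrays. The 9 monocyte and macrophage markers on the array summed to 64.5 on it, to 60.7 on the slide 1 array of shRNA1 +DEX and to at most 22.9 on the others. Summed hepatocyte and lymphoid markers did not exceed 2.28 on any array. On the same shRNA2 array Atf4, Chac1, Phgdh, Psat1 and Shmt2 had their lowest level of all 8 arrays. The shRNA2 differences of the 10 genes are therefore given with and without it. Those of other genes and of the lists all include it.

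**Figure D2:**
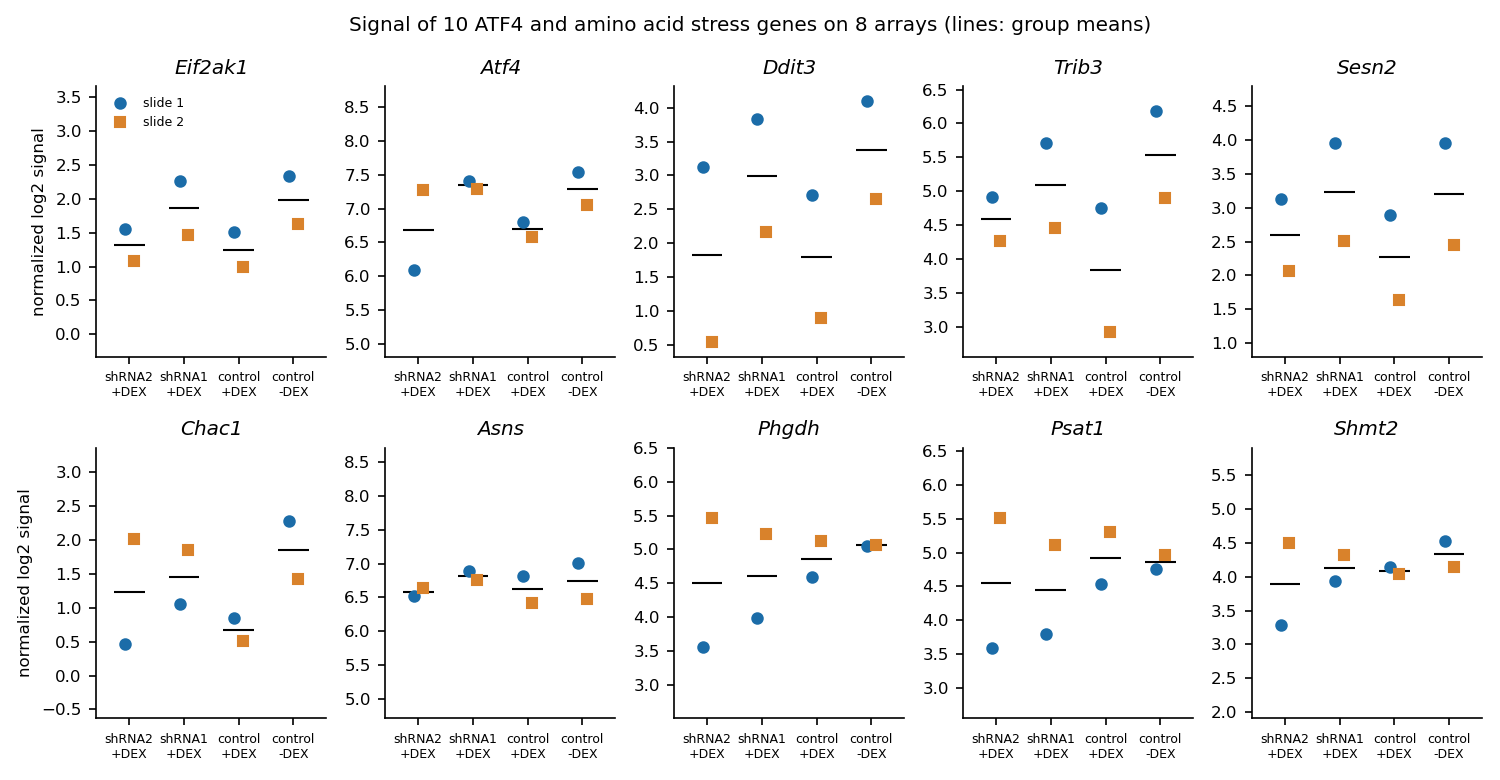
Normalized log2 signal (vertical axis; every panel spans the same range of log2 units) of the 10 genes in the 4 groups, with circles for slide 1, squares for slide 2 and lines for group means. Trib3, Ddit3, Sesn2, Chac1, Atf4 and Eif2ak1 had lower means in control +DEX than in control -DEX and higher means in shRNA1 +DEX than in control +DEX, and in shRNA2 +DEX Atf4, Phgdh and Psat1 differ widely between the slides.

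The first comparison asks how these genes respond to the glucocorticoid, in control +DEX against control -DEX. All 6 genes of the kinase, transcription factor and stress effector classes, namely Eif2ak1, Atf4, Ddit3, Trib3, Sesn2 and Chac1, were lower with DEX on both slides, by 0.60 to 1.70 on average. Of the 4 enzymes of amino acid synthesis, Asns and Shmt2 were lower by small amounts and Phgdh and Psat1 went opposite ways on the slides. None of the 10 genes passed an adjusted p of 0.05 in limma, with the slide as a block or without it.

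Trib3, a pseudokinase that ATF4 and CHOP induce and that restrains them, had levels of 4.76 and 2.92 in control +DEX, against 6.19 and 4.89 in control -DEX. The groups did not overlap, and the difference was -1.70 (SE 0.80), or -1.43 on slide 1 and -1.97 on slide 2. Its adjusted p in limma was 1.00 without the block and 0.113 with it. Ddit3, which encodes the transcription factor CHOP, had 2.70 and 0.89 in control +DEX, against 4.10 and 2.65 in control -DEX. Here the slide 1 array with DEX was slightly above the slide 2 array without it, so the groups overlapped, yet the within-slide differences were -1.39 and -1.76 (mean -1.58, SE 1.12, limma adjusted p with the slide block 0.138). Ddit3 and Trib3 were the only 2 of the 10 genes at least 2-fold lower on both slides, as were 2.05% of all genes, and none of the 10 was 2-fold higher on both, as were 1.68% of all genes.

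Chac1, an enzyme that degrades glutathione, had 0.85 and 0.51 in control +DEX, against 2.28 and 1.42 in control -DEX, with no overlap. It missed 2-fold on slide 2, where the difference was -0.91, against -1.43 on slide 1 (mean -1.17, SE 0.62). Sesn2, a leucine sensor that restrains the growth kinase mTORC1, had 2.90 and 1.64 in control +DEX, against 3.95 and 2.46 in control -DEX. The groups overlapped, but the differences on the slides were close, -1.06 and -0.82 (mean -0.94, SE 0.80), and the limma adjusted p with the slide block was 0.168.

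Eif2ak1, the HRI kinase, had 1.51 and 0.99 in control +DEX, against 2.34 and 1.63 in control -DEX. The groups did not overlap, and the difference was -0.84 on slide 1 and -0.64 on slide 2 (mean -0.74, SE 0.45, adjusted p with the slide block 0.239 in limma). Both Atf4 probes gave the same direction. The later probe had 6.80 and 6.59 in control +DEX, against 7.53 and 7.05 in control -DEX (-0.60, SE 0.45; -0.73 and -0.46), and the earlier probe 1.54 and 1.68 in control +DEX, against 2.38 and 2.16 in control -DEX (-0.66, SE 0.39). In neither did the groups overlap.

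Asns, asparagine synthetase, had 6.82 and 6.42 in control +DEX, against 7.01 and 6.48 in control -DEX, a difference of -0.13 (SE 0.33; -0.19 and -0.06 on the slides) with overlapping groups. Shmt2, the mitochondrial enzyme that passes a carbon unit from serine to folate, had 4.14 and 4.03 in control +DEX, against 4.53 and 4.14 in control -DEX (-0.25, SE 0.46; -0.39 and -0.11). Phgdh, the first enzyme of serine synthesis, had 4.59 and 5.12 in control +DEX, against 5.05 and 5.07 in control -DEX, lower on slide 1 by 0.46 and higher on slide 2 by 0.05. Psat1, the next enzyme of that pathway, had 4.54 and 5.30 in control +DEX, against 4.75 and 4.97 in control -DEX, and its slides also disagreed (-0.21 and 0.33). The 3 genes with a motif match in their windows thus had differences of -1.70 (Trib3), -1.17 (Chac1) and -0.13 (Asns), and the 7 without one had differences between -1.58 (Ddit3) and 0.06 (Psat1).

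With 1 array left out, which unbalances the slides, the difference ranged from -2.62 to -0.78 for Trib3, -2.48 to -0.67 for Ddit3 and -1.69 to -0.19 for Sesn2. Over the 10 genes the median difference with DEX was -0.67, against -0.08 over all genes tested. In the same direction on both slides, 8 of the 10 genes were lower, as were 38.7% of all genes, and none was higher, as were 23.4% of all genes. No gene on the array passed the adjusted p of 0.05 in limma without the block (0%; 3.11% had an unadjusted p below 0.05, none of them among the 10). When the slide was a block, 44 genes passed, 0.23% of those tested and none of the 10, while 9.56% had an unadjusted p below 0.05. Those 9.56% held 4 of the 10: Trib3 (0.00188), Ddit3 (0.00280), Sesn2 (0.00449) and Eif2ak1 (0.00971), all unadjusted p-values of limma with the block. Markers of cell state moved with this comparison too. The 10 erythroid markers tested had a median of -0.35 with DEX, 8 of them lower on both slides, and the 12 neutrophil markers -1.05, 9 of them lower on both slides. The 8 megakaryocyte markers had a median of -0.97, with 6 lower on both slides, and summed to 28.9 and 17.8 in control +DEX, against 49.6 and 66.9 in control -DEX. The 8 monocyte markers tested had a median of -0.96, with 5 lower on both slides. In RNA of whole cultures fewer cells of a type and less RNA per cell cannot be told apart, and the part of these markers in the stress gene differences was not tested.

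**Figure D3:**
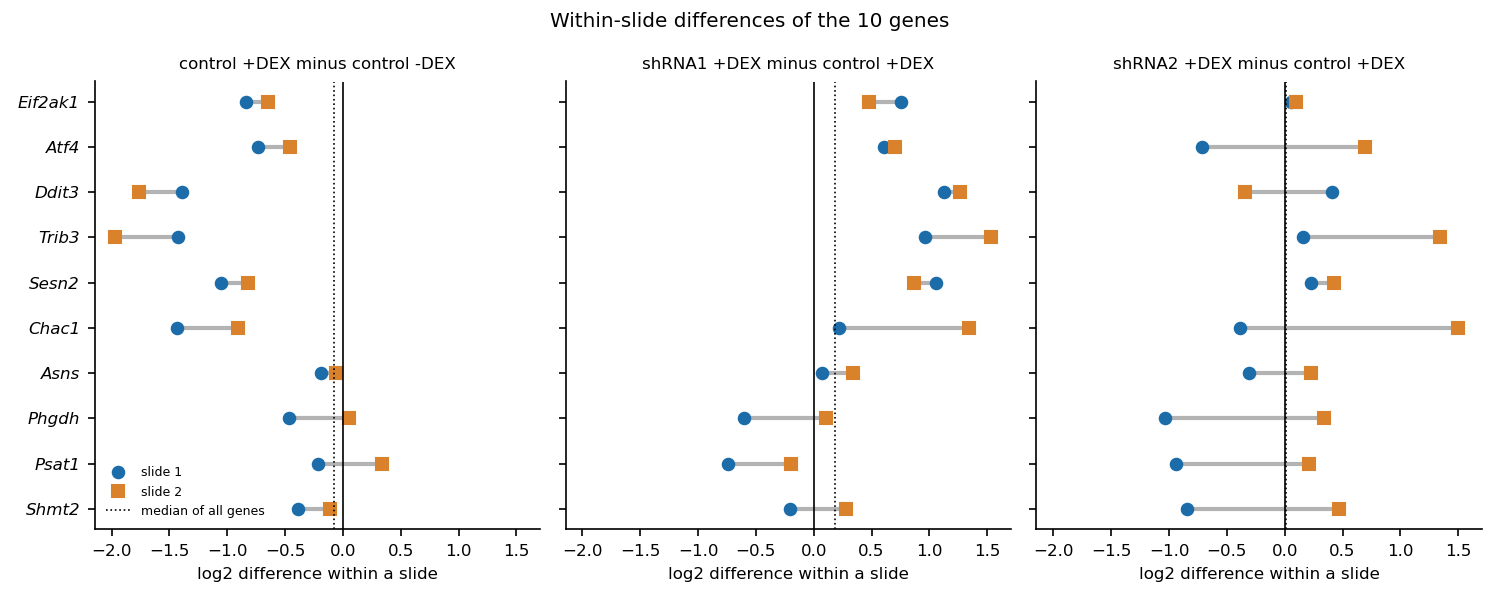
Log2 differences within slide 1 (circles) and slide 2 (squares) for the 10 genes (vertical axis) in 3 comparisons, with the median of all genes dotted. With DEX, Trib3 and Ddit3 lie beyond -1 on both slides; with shRNA1 only Ddit3 lies beyond 1 on both; with shRNA2 the 2 slides lie on opposite sides of 0 for 7 of the 10 genes.

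The hairpin comparisons ask how the genes respond to reduction of the RNA-binding protein under DEX. They share the control +DEX arrays with the DEX comparison, so a gene that is low on those arrays is high in both hairpin comparisons and low in the DEX comparison by construction, and the values are set side by side without a test of their relation. With shRNA1 the same 6 genes of the kinase, transcription factor and stress effector classes were higher than in control +DEX on both slides, by 0.62 to 1.24 on average. Serine synthesis genes were not: Psat1 was lower on both slides. None of the 10 passed an adjusted p of 0.05 in limma, with or without the slide block.

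Trib3 had 5.72 and 4.45 in shRNA1 +DEX, against 4.76 and 2.92 in control +DEX, a difference of 1.24 (SE 0.80; 0.96 and 1.53 on the slides). The group ranges overlapped, because the slide 1 control array was higher than the slide 2 shRNA1 array. Ddit3 had 3.83 and 2.16 in shRNA1 +DEX, against 2.70 and 0.89 in control +DEX (1.19, SE 1.12; 1.12 and 1.27). It was the only 1 of the 10 that was at least 2-fold higher on both slides, as were 3.04% of all genes, and none of the 10 was 2-fold lower on both, as were 0.612% of all genes. Sesn2 had 3.96 and 2.51 in shRNA1 +DEX, against 2.90 and 1.64 in control +DEX (0.96, SE 0.80; 1.06 and 0.86). Its adjusted p with the slide block, 0.229, was the smallest of the 10 genes in limma for this comparison.

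Chac1 had 1.06 and 1.86 in shRNA1 +DEX, against 0.85 and 0.51 in control +DEX, without overlap, but the difference was 0.22 on slide 1 and 1.34 on slide 2 (mean 0.78, SE 0.62). Eif2ak1 had 2.26 and 1.47 in shRNA1 +DEX, against 1.51 and 0.99 in control +DEX (0.62, SE 0.45; 0.75 and 0.48). For Atf4 the probes disagreed. The later probe had 7.41 and 7.29 in shRNA1 +DEX, against 6.80 and 6.59 in control +DEX, with no overlap and a difference of 0.65 (SE 0.45; 0.60 and 0.70). The earlier probe had 1.44 and 1.95 in shRNA1 +DEX, against 1.54 and 1.68 in control +DEX, so that the control values lay within the shRNA1 values (0.09, SE 0.39; -0.10 and 0.27). A higher Atf4 signal with shRNA1 therefore rests on 1 of its 2 probes.

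Asns had 6.89 and 6.75 in shRNA1 +DEX, against 6.82 and 6.42 in control +DEX (0.20, SE 0.33; 0.07 and 0.34). Psat1 had 3.80 and 5.11 in shRNA1 +DEX, against 4.54 and 5.30 in control +DEX (-0.47, SE 0.74; -0.74 and -0.19), and its earlier probe gave -0.59 (SE 0.53). Phgdh had 3.99 and 5.23 in shRNA1 +DEX, against 4.59 and 5.12 in control +DEX. Shmt2 had 3.93 and 4.32 in shRNA1 +DEX, against 4.14 and 4.03 in control +DEX. Both were lower on slide 1 and higher on slide 2 (-0.60 and 0.11 for Phgdh, -0.20 and 0.28 for Shmt2).

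With 1 array left out the difference with shRNA1 ranged from 0.33 to 2.16 for Trib3, 0.29 to 2.10 for Ddit3 and 0.24 to 1.69 for Sesn2. The median over the 10 genes was 0.63 with shRNA1, against 0.18 over all genes. That background moved with the scaling of the arrays, to -0.22 with each array's median as the scale, whereas the distance of the 10 genes from it lay between 0.28 and 0.52 over the scalings and signal corrections tried. On both slides 7 of the 10 were higher, as were 49.3% of all genes, and 1 was lower, as were 26.6%. In limma 0% of all genes passed the adjusted p without the block and 0% with it. An unadjusted p below 0.05 was reached by 2.09% of genes without the block, none of the 10, and by 17.8% with it, including Sesn2 (0.00399), Trib3 (0.00780), Ddit3 (0.00968) and Eif2ak1 (0.0206). The 12 neutrophil markers were all higher with shRNA1 on both slides, with a median of 1.70, and 9 of 10 erythroid markers were higher on both, with a median of 0.45. Monocyte markers had a median of 0.88 (7 of 8 higher on both slides) and megakaryocyte markers 0.87 (5 of 8). Their part in the differences was not tested.

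With shRNA2 no pattern held across the 10 genes. The slides went opposite ways for 7 of them, and the median was 0.01, equal to that of all genes. Only Trib3, Sesn2 and Eif2ak1 were higher on both slides, 3 of 10 where 27% of all genes were, and none was lower on both, where 25.4% of all genes were. None of the 10 was 2-fold higher (0.758% of all genes) or 2-fold lower (0.261%) on both slides.

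Trib3 had 4.92 and 4.26 in shRNA2 +DEX, against 4.76 and 2.92 in control +DEX, a difference of 0.16 on slide 1 and 1.34 on slide 2 (mean 0.75, SE 0.80). Sesn2 had 3.12 and 2.06 in shRNA2 +DEX, against 2.90 and 1.64 in control +DEX (0.32, SE 0.80; 0.23 and 0.42). Eif2ak1 had 1.56 and 1.09 in shRNA2 +DEX, against 1.51 and 0.99 in control +DEX (0.07, SE 0.45; 0.05 and 0.10). Ddit3, 2-fold higher with shRNA1, had 3.12 and 0.54 in shRNA2 +DEX, against 2.70 and 0.89 in control +DEX (0.03, SE 1.12; 0.41 and -0.35).

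The other 6 genes were all lower with shRNA2 on slide 1 and higher on slide 2. Atf4 had 6.09 and 7.28 in shRNA2 +DEX, against 6.80 and 6.59 in control +DEX (-0.72 and 0.69). Chac1 had 0.46 and 2.01 in shRNA2 +DEX, against 0.85 and 0.51 in control +DEX (-0.39 and 1.50). Phgdh had 3.55 and 5.46 in shRNA2 +DEX, against 4.59 and 5.12 in control +DEX (-1.04 and 0.34). The shRNA2 +DEX values of all 3 genes enclosed those of control +DEX. Psat1 had 3.60 and 5.51 in shRNA2 +DEX, against 4.54 and 5.30 in control +DEX (-0.94 and 0.21). Shmt2 had 3.29 and 4.50 in shRNA2 +DEX, against 4.14 and 4.03 in control +DEX (-0.85 and 0.47). Asns, the steadiest of these 6 between the slides, had 6.51 and 6.64 in shRNA2 +DEX, against 6.82 and 6.42 in control +DEX (-0.31 and 0.23). For Atf4, Chac1, Phgdh, Psat1 and Shmt2 the low value was that of the array with the high neutrophil signal. Without that array the differences were 0.59 for Atf4, 1.33 for Chac1, 0.60 for Phgdh, 0.59 for Psat1, 0.42 for Shmt2, 0.03 for Asns and -1.25 for Ddit3. Of the 3 genes higher on both slides, Trib3 then stood at 0.42, while Sesn2 at -0.20 and Eif2ak1 at -0.16 turned to the opposite sign. These values set a slide 2 array against controls of both slides. The neutrophil markers had a median difference of 4.14 on slide 1 and 0.93 on slide 2 with shRNA2, and their part was not tested.

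No gene of the 10 had an adjusted p below 0.05 with shRNA2, and of all genes 0% did in limma without the block and 0.00523%, or 1 gene, with it. An unadjusted p below 0.05 was reached by 1.25% and 5.7% of all genes without and with the block, and by none of the 10. Set directly against each other, shRNA2 +DEX was below shRNA1 +DEX on both slides for 6 of the 10 genes, where 45.8% of all genes were: Ddit3 (-1.16, SE 1.12), Atf4 (-0.67, SE 0.45), Sesn2 (-0.64, SE 0.80), Eif2ak1 (-0.54, SE 0.45), Trib3 (-0.49, SE 0.80) and Asns (-0.24, SE 0.33). The parts on slide 1 and slide 2 were -0.71 and -1.61 for Ddit3, -1.32 and -0.01 for Atf4, -0.83 and -0.44 for Sesn2, -0.70 and -0.38 for Eif2ak1, -0.80 and -0.19 for Trib3, and -0.38 and -0.11 for Asns. The earlier Atf4 probe gave 0.045 (SE 0.39), with -0.13 on slide 1 and 0.22 on slide 2. A lower Atf4 signal with shRNA2 than with shRNA1 therefore rests on 1 of its 2 probes. The other 4 genes were lower on slide 1 and higher on slide 2. Without the slide 1 array of shRNA2 +DEX these 6 differences were -2.45, -0.07, -1.17, -0.78, -0.82 and -0.18 in the same order of genes, and Chac1, Phgdh, Psat1 and Shmt2 stood at 0.55, 0.85, 1.06 and 0.38. These values set a slide 2 array against shRNA1 +DEX arrays of both slides, so they also hold the slide differences given above. Ddit3, for example, was 1.45 to 2.57 lower on slide 2 in the 4 groups. With all arrays the median over the 10 genes was -0.37, against -0.13 over all genes. None of the 10 differed between the hairpins at an adjusted p of 0.05 in limma, nor did any other gene (0% without the block and 0% with it). Unadjusted p-values below 0.05 came to 2.38% of genes without the block, none of the 10, and to 11% with it, among them Ddit3 (0.0109), Sesn2 (0.0225) and Eif2ak1 (0.0331).

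Other genes of the response were read from 7 lists covering 82 genes beyond the 10, of which 80 were tested. None passed the adjusted p of 0.05 in any comparison in limma, with or without the slide block. Of all genes 0% did without the block and at most 0.23% with it. With DEX 38 of the 80 (47.5%) were lower on both slides and 18 (22.5%) higher, where 38.7% and 23.4% of all genes were. With shRNA1 31 (38.75%) were higher on both and 25 (31.25%) lower, where 49.3% and 26.6% of all genes were. With shRNA2 17 (21.25%) were higher on both and 15 (18.75%) lower, where 27% and 25.4% of all genes were.

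Of the transcription factors that act with or under ATF4, all 7 had a negative mean difference with DEX (median -0.57), as did 61.6% of all genes. On both slides 4 of the 7 were lower, and 2 were at least 2-fold lower, where 38.7% and 2.05% of all genes were. Nupr1, a stress-induced chromatin protein, had 2.31 and 0.89 in control +DEX, against 3.64 and 2.73 in control -DEX (-1.59, SE 0.57, without overlap). Atf5, a relative of ATF4, had 5.27 and 3.19 in control +DEX, against 6.34 and 5.21 in control -DEX (-1.55, SE 0.97). All 7 had a positive mean difference with shRNA1 (median 0.55) and with shRNA2 (median 0.68), on both slides for 6 and for 5 of them. Of all genes 62.1% had a positive mean difference with shRNA1 and 51.4% with shRNA2, and 49.3% and 27% were higher on both slides. Atf5 had 6.23 and 4.45 in shRNA1 +DEX, 1.11 above control +DEX (SE 0.97). Jdp2, another leucine zipper protein, had the largest mean difference of these with shRNA2, 1.48 (SE 0.90), made of 2.56 on slide 1 and 0.41 on slide 2.

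All 10 amino acid transporters had a negative mean difference with DEX, 9 of them on both slides, with a median of -0.19, where 61.6% of all genes had a negative mean difference and 38.7% were lower on both slides. Slc7a11, the cystine transporter, had -3.82 and -3.62 in control +DEX, against -2.06 and -1.79 in control -DEX, and its difference of -1.79 (SE 0.62) was nearly equal on the slides (-1.75 and -1.82). It was 2-fold lower on both slides, like Trib3 and Ddit3. With shRNA1 its difference was 0.55 (0.14 on slide 1 and 0.96 on slide 2). With shRNA2 it was -0.11, and the slides went opposite ways (-0.84 and 0.62). Slc7a3, a carrier of cationic amino acids, was higher with shRNA1 by 1.44 (SE 0.73) and with shRNA2 by 1.55 (SE 0.73), with shRNA2 by 0.34 on slide 1 and 2.76 on slide 2.

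The 9 genes for eIF2alpha kinases and phosphatase subunits, Eif2ak1 included, had medians of 0.08 with DEX, -0.02 with shRNA1 and -0.06 with shRNA2. Their largest mean difference agreeing on both slides was that of Ppp1r15a, which encodes GADD34, the subunit that directs a phosphatase to eIF2alpha. It had 4.93 and 2.82 in control +DEX, against 5.51 and 3.95 in control -DEX (-0.86, SE 1.12). In shRNA1 +DEX it had 6.13 and 4.07, at least 2-fold above control +DEX on both slides (1.22, SE 1.12; 1.20 and 1.25).

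The other genes of amino acid and one-carbon synthesis had medians near those of all genes with DEX (-0.13) and below them with shRNA1 (-0.09) and shRNA2 (-0.25). With the hairpins the slides disagreed. The list medians were -0.41 on slide 1 and 0.08 on slide 2 with shRNA1, and -0.85 and 0.42 with shRNA2. On both slides 2 of the 11 tested were lower with shRNA2 and 0 higher, where 25.4% and 27% of all genes were. Mthfd2, a mitochondrial enzyme of the folate cycle, had 1.31 and 1.52 in control +DEX, against 2.53 and 2.38 in control -DEX, without overlap (-1.04, SE 0.58). Cth, which makes cysteine from cystathionine, was 0.74 higher with shRNA1 (SE 0.63), and Cbs, the enzyme before it, was 0.25 lower with shRNA2 (SE 0.37). The 20 cytosolic tRNA synthetases had medians of -0.09 with DEX, -0.09 with shRNA1 and -0.23 with shRNA2. Here too the slides disagreed with the hairpins, at -0.28 on slide 1 and 0.16 on slide 2 with shRNA1, and -0.64 and 0.13 with shRNA2. Aars, which charges the tRNA of alanine, was 0.47 lower with DEX (SE 0.28). Farsb, a subunit for phenylalanine, was 0.74 lower with shRNA1 and 0.56 lower with shRNA2 (SE 0.80 each). Its differences on slide 1 and slide 2 were -1.18 and -0.30 with shRNA1, and -1.08 and -0.05 with shRNA2.

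The 9 other stress effectors tested had a median of -0.43 with DEX. On both slides 4 were lower and 3 higher, where 38.7% and 23.4% of all genes were. Ddit4, an inhibitor of mTORC1 known to be induced by glucocorticoids, was among the higher ones, with 3.86 and 2.87 in control +DEX, against 3.29 and 1.69 in control -DEX (0.87, SE 0.69). Gdf15, a secreted stress protein, had 1.86 and -0.52 in shRNA1 +DEX, against 0.28 and -2.89 in control +DEX (1.98, SE 1.31; 1.58 and 2.38). Vldlr, a lipoprotein receptor, was 2.16 higher with shRNA2 (SE 1.33; 2.44 and 1.88), where only 1 of the 2 control +DEX arrays was well above background. Genes of the endoplasmic reticulum unfolded protein response, 15 in all, had medians of -0.11 with DEX, -0.23 with shRNA1 and -0.02 with shRNA2. With shRNA1 11 of these 15 were lower on both slides, where 26.6% of all genes were. Only Ern1, which encodes the sensor IRE1, was higher on both slides with shRNA1. It was 1.15 lower with DEX (SE 0.76) and 0.91 higher with shRNA1 (SE 0.76), on both slides each time. Sdf2l1, a chaperone partner of the endoplasmic reticulum, was 0.56 lower with shRNA2 (SE 0.52).

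**Figure D4:**
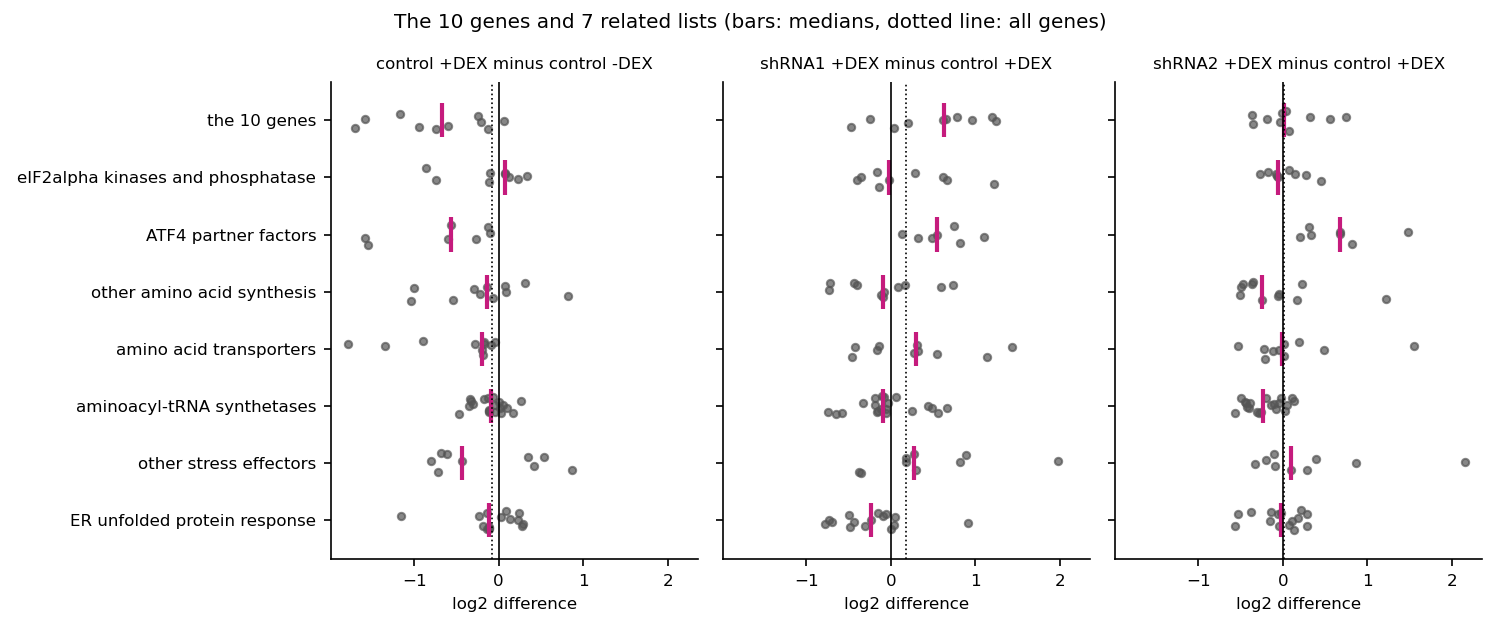
Mean log2 differences (horizontal axis) of the 10 genes and of 7 related lists (rows) in 3 comparisons, with 1 point for each gene, bars for list medians and the median of all genes dotted; Eif2ak1 stands in both of the top rows. The 10 genes and the ATF4 partner factors lie lowest with DEX (medians -0.67 and -0.57) and highest with shRNA1 (0.63 and 0.55), while the genes of the unfolded protein response had medians of -0.11 and -0.23.

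The profiles most like those of Trib3 and Asns were sought over the 8 arrays, as the root mean square difference between centred log2 levels; arrays share slides, so the measure describes these libraries only. For Trib3 the 5 closest of all genes tested were Sowaha (0.24), Atf5 (0.26), ENSMUST00000106801 (0.27), Bcl2l1 (0.30), whose product protects erythroid cells from apoptosis, and Cdr2 (0.30), with Sesn2 ranked 9 (0.33), Eif2ak1 276 and Ddit3 446. Phgdh and Psat1 ranked 16164 and 17341 for likeness to Trib3. The levels were not corrected for the slide, so these ranks also hold the slide differences. Trib3, Sowaha, Atf5, Bcl2l1 and Cdr2 were lower on slide 2 in all 4 groups, and Phgdh and Psat1 were higher. The root mean square of Trib3's own profile was 0.92. For Asns, whose own profile was nearly flat (0.20), the closest were Rps13 (0.06), which encodes a ribosomal protein, Lenep (0.06), the unnamed probe A_55_P2158152 (0.07), Gm7065 (0.07) and Gm5786 (0.07). The nearest of the other 9 stress genes to Asns was Eif2ak1, at rank 4967.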

How the data were processed

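Per the file headers, the authors' intensities come from Agilent Feature Extraction 10.1.1.1 and are processed signals on a linear scale; the submitters' processing notes name that program and limma, with no versions. A deposited table of log2 values, with medians between 6.65 and 6.66 and no stated method, was used only as an alternative. Of 44397 spots per array, the 1377 controls and any spot with an outlier mark were dropped, as were 441 probes that then had no spot on some array. Accessions named 26581 probes, and 12848 kept the file's name.

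The log2 signal minus its array's 75th percentile was tested in a single limma fit (version 3.58.1, lmFit and eBayes, R 4.3.3) of the 4 groups, with 4 residual degrees of freedom and Benjamini-Hochberg adjustment over 19130 genes. A gene entered if some group had it well above background on both arrays. The code of the fit was checked on simulated data with no slide effect and with planted differences larger than those of the 10 genes. That check does not measure power or error rates in these data. Replicate numbers equal the slide, per the file headers, and same-numbered arrays deviated together (correlations over genes between 0.43 and 0.86 for the 6 pairs of groups), so a fit with the slide as a block is given beside results it changes. The number of arrays limits the precision; the median standard error was 0.49. The members, lists and rules were chosen with earlier results of these data known. Besides the 10 genes, the text names from each list and comparison the gene with the largest mean difference agreeing on both slides, the 5 closest profiles to Asns and to Trib3, and Zfp36l2. Of the genes outside that rule, Atf5 with DEX and Slc7a11 with the hairpins were named after their values were seen. Alternatives were quantile and median scaling, normexp with an offset of 50, no filter on dim probes, the authors' values, the mean over a gene's probes, the slide block and leaving out each array. Plots were drawn with matplotlib 3.10.9.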

Additional observations from a re-analysis of the deposited data

How the results depend on the processing

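None of the 10 genes passed an adjusted p of 0.05 in any comparison under any of the 15 alternatives. Of all genes none did either, except with the slide block, where 44 passed with DEX (0.23%) and 1 with shRNA2 (0.00523%). The absence of calls therefore does not set the 10 genes apart. Directions held throughout for 7 of 10 genes with DEX (all but Asns, Phgdh and Psat1), for 6 of 10 with shRNA1 (Trib3, Ddit3, Sesn2, Chac1, Atf4 and Eif2ak1), for none with shRNA2, and for 2 of 10 between the hairpins (Eif2ak1 and Atf4). No alternative used the earlier Atf4 probe alone. That probe gave 0.09 with shRNA1 (-0.10 on slide 1 and 0.27 on slide 2) and 0.045 between the hairpins, the opposite sign to the later probe there. With the replicate block, in which the replicate number equals the slide, the number of the 10 genes called stayed at 0 in all 4 comparisons. The calls over all genes with DEX went to 44. Every difference kept its value, which the design fixes because each group had 1 array on each slide, so the block does not test the directions. The 2 genes at 2-fold on both slides with DEX became 3 with normexp. The 1 gene at 2-fold on both slides with shRNA1 (Ddit3) became 0 under median scaling, which lowers every shRNA1 difference alike. Counts at 2-fold on both slides have no value once an array is left out.

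Directions that turned with the scaling or signal, the cause not being tested, were these. With DEX Asns was 0.026 in the authors' values. With shRNA1 Asns was -0.20 under median scaling and -0.072 in the authors' values, and Shmt2 was -0.0080 under quantile scaling, -0.36 under median scaling, -0.032 with normexp and -0.042 in the authors' values. With shRNA2 median scaling gave -0.17 for Eif2ak1 and -0.21 for Ddit3, and Atf4 was 0.044 under quantile scaling and 0.060 as the mean of its probes. Between the hairpins Asns was 0.0045 in the authors' values and Phgdh 0.049 under median scaling.

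Where leaving out 1 array turned a direction, the log2 differences ranged as follows. With DEX they ran from -0.40 to 0.14 for Asns, -0.47 to 0.058 for Phgdh and -0.32 to 0.44 for Psat1. With shRNA1 they ran from -0.00061 to 0.40 for Asns, -0.87 to 0.38 for Phgdh, -1.12 to 0.19 for Psat1 and -0.15 to 0.23 for Shmt2. With shRNA2 they ran from -0.18 to 0.33 for Eif2ak1, -0.61 to 0.59 for Atf4, -1.25 to 1.32 for Ddit3, -0.17 to 1.67 for Trib3, -0.30 to 0.95 for Sesn2, -0.22 to 1.33 for Chac1, -0.24 to 0.16 for Asns, -1.30 to 0.60 for Phgdh, -1.32 to 0.59 for Psat1 and -0.80 to 0.42 for Shmt2. Between the hairpins they ran from -2.45 to 0.13 for Ddit3, -1.13 to 0.14 for Trib3, -1.36 to 0.089 for Sesn2, -0.9996 to 0.55 for Chac1, -1.06 to 0.85 for Phgdh, -0.86 to 1.06 for Psat1 and -0.83 to 0.38 for Shmt2. Sizes moved as well where the direction held. With DEX they ran from -1.10 to -0.39 for Eif2ak1, -0.84 to -0.35 for Atf4, -2.48 to -0.67 for Ddit3, -2.62 to -0.78 for Trib3, -1.69 to -0.19 for Sesn2, -1.60 to -0.74 for Chac1 and -0.44 to -0.059 for Shmt2, and with shRNA1 from 0.22 to 1.01 for Eif2ak1, 0.55 to 0.76 for Atf4, 0.29 to 2.10 for Ddit3, 0.33 to 2.16 for Trib3, 0.24 to 1.69 for Sesn2 and 0.39 to 1.18 for Chac1. The slide 1 array of shRNA2 +DEX enters only the shRNA2 and between-hairpin differences, and turned 11 of them when left out. The slide 2 array of control +DEX enters all but the between-hairpin differences, and turned 10. No other array turned as many. Leaving out 1 array also unbalances the slides, and the part of this in the turns was not tested.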
